A study of Mus musculus with 8 samples.

Results

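The cytosolic sulfotransferases of liver were described in the NZO and B6 arrays. Their members were taken by gene name: every probe that the array annotation assigns to Sult1a1, Sult1b1, Sult1c2, Sult1d1, Sult1e1, Sult2a1, Sult2a2, Sult3a1 or Sult5a1 was kept, and each probe was treated separately. This gave 12 probes for 9 genes, out of 55681 probes with 34836 names on the array. Liver RNA of 4 male NZO mice (NZO/HiBomDife) and 4 male B6 mice (C57BL/6) was hybridised to Agilent arrays with 1 colour, 1 mouse per array. All mice of both strains were 6 weeks old and received a high fat diet with 45% fat. NZO is an inbred strain that becomes obese and diabetic through many gene variants, so the comparison is one of whole strains and names no single allele, and B6 is the lean reference. The comparison asks which liver transcripts differ in level between the strains. Nothing in the labels gives litters or cages, and p-values measure the spread between these 8 mice.

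Sulfotransferases transfer a sulfonate group from the donor PAPS (3′-phosphoadenosine 5′-phosphosulfate) to hydroxyl or amino groups, which makes drugs, hormones, bile acids and other small molecules more soluble in water and often inactive. In liver they form, together with the UDP-glucuronosyltransferases, the main conjugating step after oxidation by cytochrome P450 enzymes. Members of the SULT1 family act mainly on phenols, catechols, thyroid hormones and oestrogens, the SULT2A enzymes act on hydroxysteroids such as dehydroepiandrosterone and on bile acids, and Sult3a1 acts on amines. In mice, Sult1e1, the Sult2a genes and Sult3a1 are known for levels that depend on sex, with low levels of the Sult2a genes and Sult3a1 in adult male liver.

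Each probe is a stretch of 60 bases, and its position in the mouse genome (build mm9) is given in the files. The sequences show where probes are not independent of each other or may bind more than 1 transcript. The pair of Sult1a1 probes lies next to each other at chr7:133816605-133816664 and chr7:133816657-133816716, on the minus strand, and shares 8 bases, which are in capitals.
Sult1a1 A_55_P2005475: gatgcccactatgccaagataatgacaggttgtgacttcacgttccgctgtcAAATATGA
Sult1a1 A_51_P321341, first 30 bases: AAATATGAgtggatatggctatactgggaa
The Sult5a1 probe at chr8:125666951-125667010 and the Sult1d1 probe at chr5:87985008-87985067 were above background on all arrays. Both genes also have a probe that was not.
Sult5a1 A_51_P471458: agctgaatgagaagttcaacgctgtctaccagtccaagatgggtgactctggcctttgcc
Sult1d1 A_55_P2181542: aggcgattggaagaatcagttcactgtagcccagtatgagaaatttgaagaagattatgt
The probes of Sult2a1 (chr7:14381602-14381661) and Sult2a2 (chr7:14364926-14364985) matched at 54 of 59 aligned bases. All 5 bases that differ lie in a stretch of 30 bases, and they are in capitals.
Sult2a1 A_55_P1952517: ctgttgttGtGtatcttgaatacctAGatG
Sult2a2 A_55_P1952512: ctgttgttCtAtatcttgaatacctGAatA
The array annotation lists accessions of Sult2a1 and Sult2a4 for the Sult2a1 probe and of Sult2a2 and Sult2a5 for the Sult2a2 probe. Signals of these near-identical genes cannot be separated with certainty.

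A level is the log2 of the background-subtracted signal minus the 75th percentile of the same array, so that 0 is the 75th percentile. That percentile was a signal of 118.6 to 141.8 in NZO and of 136.6 to 158.9 in B6. Between 50.4% and 55% of the spots were well above background in NZO, and between 53.1% and 60.1% in B6. The weakest signal found above background lay at a level of -4.51 to -3.93, depending on the array. No sulfotransferase probe was saturated. Levels of different probes are not compared, because each probe binds with its own strength.

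The liver label was checked with markers. Alb, Ttr, Apoa1, Cps1 and Tat, genes of hepatocytes, were above background on all arrays, none of the 5 was called different, also with p-values left unadjusted, and their summed level was 11.89 to 11.94 in NZO and 11.55 to 11.88 in B6. The Y-linked Ddx3y and Eif2s3y were above background and both Xist probes were at background on every array, as the male label requires. Adiponectin (Adipoq), leptin (Lep) and perilipin (Plin1), which define adipocytes, were at background on all arrays, and so were Muc2 and Vil1 of the gut, the pancreatic Cela3b, Pnlip, Cpa1 and Prss2, and the renal Umod. From the same lists, Fabp4, Cidec, Cela1 and Ctrb1 were above background on all arrays and were not called. Of the other renal markers, 1 of 2 Slc34a1 probes (A_55_P1991891) was above background on 3 NZO and 4 B6 arrays and was not called (-0.70, adjusted p = 0.483), and Kap was above background in NZO 007 alone (-3.89).

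Skeletal muscle transcripts were unevenly spread over the arrays and highest in NZO 007. NZO 007 carried skeletal muscle transcripts, with a summed level of Ckm, Acta1, Myh4 and Tnnt3 of 4.23, against -2.23 in NZO 003, -2.14 in NZO 009 and -1.32 in NZO 011. In B6 the sum was 2.63 in mouse 010, 0.67 in mouse 015, 0.14 in mouse 011 and -1.24 in mouse 009. NZO 007 was also the lowest NZO array for both probes of Sult1a1 and for Sult1b1, Sult1c2, Sult1d1 and Sult5a1. Values without NZO 007 are therefore given below. Without B6 010, the next highest in muscle transcripts, the log2 fold changes were -1.21 and -1.18 for the Sult1a1 probes. They were 0.84 for Sult1b1, 1.41 for Sult5a1, 0.54 for Sult1c2 and -0.82 for Sult1d1. Of 4 red cell markers, Hba-a1 (log2 fold change 1.01, adjusted p = 0.0181) and Alas2 (0.90, adjusted p = 0.0023) were called higher in NZO, and Hbb-b1 (0.81, adjusted p = 0.0699) and Slc4a1 (0.62, adjusted p = 0.321) were not called. The summed red cell level, led by Hba-a1, was 8.20 to 8.88 in NZO and 7.28 to 7.70 in B6. Of the leukocyte markers, Itgax was lower in NZO (-2.04, adjusted p = 0.0358), and Ptprc, Cd3e, Cd68 and Lyz2 were not called. Among the biliary markers, Krt19 (-0.65, adjusted p = 0.08) and Krt7 (-1.0, adjusted p = 0.091) were not called. For Krt7 the limma p without adjustment was 0.0171, and all NZO mice were below all B6 mice. Epcam was above background on no NZO array and 3 B6 arrays and was not tested. The summed biliary and gut level was -1.70 to -0.87 in NZO and -0.91 to -0.24 in B6. The part of these cell types in the sulfotransferase differences was not tested.

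The strains differed in 3 of the 9 sulfotransferase genes. Sult1a1 was lower in NZO with both of its probes, while Sult1b1 and Sult5a1 were higher. Sult1c2, Sult1d1 and Sult1e1 were measured but did not pass the test, and Sult2a1, Sult2a2 and Sult3a1 were at background on all or nearly all arrays. In numbers, 7 of the 12 probes, of 6 genes, were tested, because in 1 strain or both every one of the 4 arrays read them well above background. A probe was called different at a Benjamini-Hochberg adjusted p of 0.05 over the 27623 probes tested with limma and a log2 fold change of 0.7. With this rule 2 sulfotransferase probes were higher in NZO, where 4.36% of all tested probes were, and 2 were lower, where 5.27% were (9.62% in either direction). Both lower probes belong to 1 gene. Over all 7 tested probes the median log2 fold change was 0.31, beside 0.02 over all tested probes. With limits of 0.05 for the limma p without adjustment and 0.7 for the log2 fold change, 2 probes were higher and 3 lower. Of all tested probes, 5.19% were higher and 7.06% lower by these limits. The paper gives the same limits but does not state whether its p was adjusted, and it names another test than limma. The 2 higher and the 2 lower probes showed no overlap between the strains. Of 27615 probes, 11.4% did so upwards and 10.6% downwards, also counting probes that were not above background on every array. In whole liver, fewer cells that express a gene and less RNA per cell cannot be told apart. The differences of Sult1b1 and Sult5a1 rest on 1 tested probe each. The paper reports many single-base differences between the strains. Whether any lies under a probe and alters its signal was not tested.

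**Figure D1:**
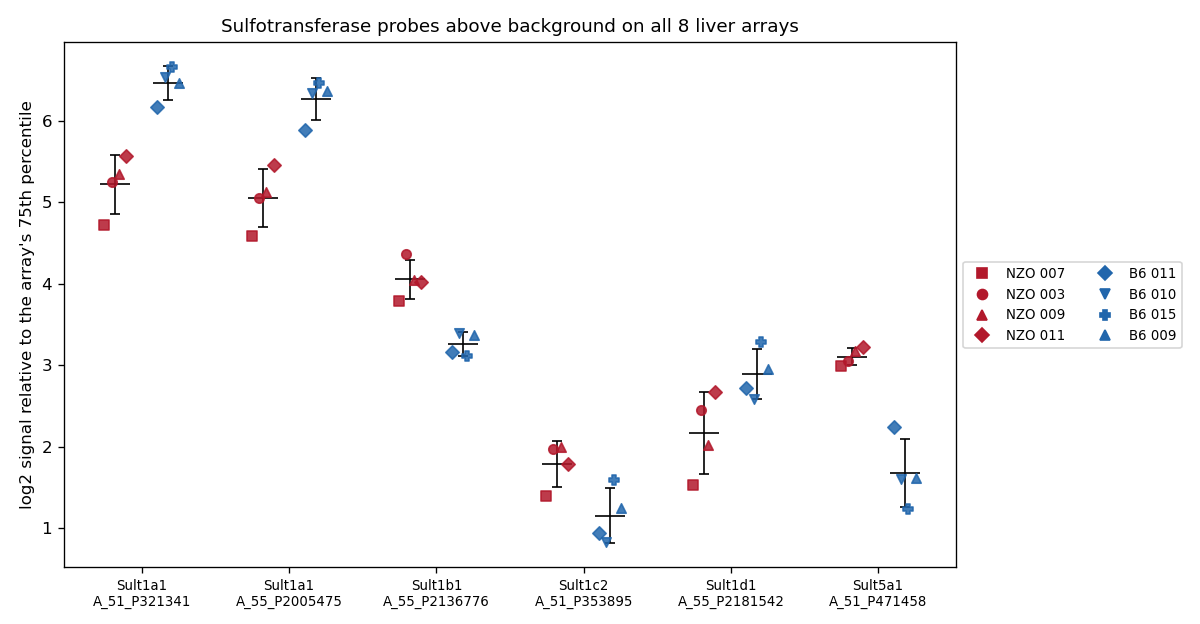
Levels of the 6 sulfotransferase probes that were above background on all 8 arrays, as log2 signal relative to the 75th percentile of each array (vertical axis), for NZO (red) and B6 (blue) mice. Each symbol is 1 mouse and the black lines give the mean and SD of 4 mice. NZO lay below B6 for both Sult1a1 probes and above B6 for Sult1b1 and Sult5a1, and the strains overlapped for Sult1c2 and Sult1d1.

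Sult1a1, the main phenol sulfotransferase of liver, which conjugates simple phenols and drugs such as paracetamol, was lower in NZO. Its probe A_51_P321341 had levels of 4.72, 5.25, 5.34 and 5.56 in NZO mice 007, 003, 009 and 011. In B6 mice 011, 010, 015 and 009 the levels were 6.17, 6.54, 6.66 and 6.46. All NZO mice were thus below all B6 mice, and NZO 007 was the lowest of the 8. The means were 5.22 ± 0.36 and 6.46 ± 0.21 (SD, n = 4 each), a log2 fold change of -1.24 (SE 0.19, 95% interval -1.68 to -0.80, adjusted p = 0.0035), that is 2.36-fold lower in NZO.

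The second Sult1a1 probe, A_55_P2005475, gave 4.59, 5.05, 5.13 and 5.45 in NZO and 5.88, 6.34, 6.46 and 6.36 in B6, in the same order of mice. Its log2 fold change was -1.20 (SE 0.20, 95% interval -1.67 to -0.74, adjusted p = 0.00506), or 2.30-fold. The deviations of the probes from their strain means had a correlation of 0.98 over the 8 arrays, so this is a repeated reading of neighbouring bases rather than independent support. Without NZO 007 the log2 fold changes were -1.07 (adjusted p = 0.00359) and -1.05 (adjusted p = 0.00781). On the single slide that held both strains (1 NZO, 2 B6) they were -1.35 with either probe.

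Sult1b1, which conjugates thyroid hormones and small phenols, was higher in NZO. The levels of A_55_P2136776 (chr5:87943760-87943819) were 3.79 in NZO 007, 4.36 in NZO 003, 4.04 in NZO 009 and 4.02 in NZO 011, against 3.16, 3.40, 3.11 and 3.37 in B6 mice 011, 010, 015 and 009. The lowest NZO mouse was above the highest B6 mouse. The means were 4.05 ± 0.23 and 3.26 ± 0.14, with a log2 fold change of 0.79 (SE 0.14, 95% interval 0.47 to 1.11, adjusted p = 0.00668), or 1.73-fold. This is close to the fold limit. The call was lost without NZO 003 (0.69, adjusted p = 0.0132), with the deposited table (0.58) and with slide as a fixed term (1.1). The direction was kept in each, and without NZO 007 the value was 0.88 (adjusted p = 0.00543). The fit with slide as a fixed term takes the strain difference from the slide with both strains, where NZO 003 is the only NZO mouse.

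Sult5a1, an enzyme whose substrates are little known, had the largest difference among the 7 tested probes of the 9 genes as processed here. Its rank changed under some alternatives. With the deposited table it was 1.13, against -1.41 and -1.43 for the Sult1a1 probes. With normexp background correction it was 1.25, against -1.27 and -1.26. With slide as a fixed term Sult1e1 had the larger value (1.70, SE 1.33). Probe A_51_P471458 gave 2.99, 3.05, 3.17 and 3.22 in NZO mice 007, 003, 009 and 011, and 2.25, 1.61, 1.24 and 1.62 in B6 mice 011, 010, 015 and 009. The NZO mice lay close together, and the B6 mice were spread more widely below them. The means were 3.11 ± 0.11 and 1.68 ± 0.42, and the log2 fold change was 1.43 (SE 0.20, 95% interval 0.97 to 1.89, adjusted p = 0.00204), or 2.70-fold. It was 1.47 without NZO 007 (adjusted p = 0.00583) and 1.63 on the slide with both strains, and with a separate variance for each strain its adjusted p over all probes was 0.0516. A second Sult5a1 probe, A_55_P2013756 (chr8:125681171-125681230), which is annotated to another transcript, was above background in 3 NZO mice and 1 B6 mouse, at levels of -3.44 to -3.19 in NZO 007 and NZO 003, -4.05 in NZO 009 and -3.79 in B6 010. It was not tested.

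Sult1d1 conjugates catecholamines such as dopamine. Its probe A_55_P2181542 gave 1.53, 2.45, 2.02 and 2.67 in NZO mice 007, 003, 009 and 011, and 2.72, 2.59, 3.29 and 2.96 in B6 mice 011, 010, 015 and 009. The highest NZO mouse overlapped with the lowest B6 mouse, and NZO 007 was the lowest. The log2 fold change was -0.72 (SE 0.26, 95% interval -1.33 to -0.12). This met the fold limit, and the limma p was 0.0251 without adjustment, but the adjusted limma p was 0.117. With a separate variance for each strain the SE was 0.3 and the adjusted p over all probes was 0.222. Without NZO 007 the log2 fold change was -0.51 (adjusted p = 0.181), and with the deposited table it was -0.91 (adjusted p = 0.0169). The probe A_55_P2181538 of the same gene (chr5:87983671-87983730) was above background in NZO 009 (-3.92), NZO 011 (-3.76) and B6 mice 011 (-4.19), 010 (-3.87) and 015 (-0.95), and was not tested.

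Sult1c2, a SULT1 enzyme for phenolic foreign compounds, had levels of 1.40, 1.98, 2.0 and 1.79 in NZO mice 007, 003, 009 and 011 with A_51_P353895 (chr17:53969205-53969264). In B6 mice 011, 010, 015 and 009 they were 0.94, 0.84, 1.59 and 1.25. NZO 007 fell among the B6 mice, and B6 015 among the NZO mice. The difference was 0.64 on the log2 scale (SE 0.20, 95% interval 0.18 to 1.11, adjusted p = 0.0753). It passed the thresholds without NZO 007 (0.77, adjusted p = 0.0404) or without B6 015 (0.79, adjusted p = 0.0369).

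Sult1e1, the oestrogen sulfotransferase, was weak and scattered in both strains. Probe A_51_P493649 (chr5:88005187-88005246) gave -3.38, -1.36, -3.74 and -1.66 in NZO mice 007, 003, 009 and 011, and -2.96, -4.29, -1.82 and -2.30 in B6 mice 011, 010, 015 and 009, where mouse 010 was not above background. The ranges of the strains overlapped almost fully. The log2 fold change was 0.31 with an SE of 0.69, and its 95% interval of -1.28 to 1.89 leaves both a decrease and an increase of more than 2-fold possible (adjusted p = 0.811). The value lay between -0.17 and 1.70 over the alternatives.

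Sult1b1, Sult1d1 and Sult1e1 are neighbours on chromosome 5 with no other protein-coding gene between them. Their log2 fold changes were 0.79, -0.72 and 0.31, and 1 of the 3 was called. Differences between these neighbours were not tested.

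Sult2a1 and Sult2a2, hydroxysteroid sulfotransferases, gave almost no signal in these male livers. Sult2a1 was not above background on any array, with readings of -6.30 to -5.98 in NZO and -6.62 to -6.08 in B6. Sult2a2 was above background in NZO 009 alone, at -3.55, while the other NZO mice read -6.33, -5.24 and -4.75 and the B6 mice -6.75 to -6.24. Sult3a1, the amine sulfotransferase (chr10:33599125-33599184), was likewise above background in NZO 009 alone, at -3.82, with the other 7 mice at -6.74 to -5.80. A Sult2a6 probe, A_55_P2172532, whose annotation lists Sult2a1, Sult2a5 and Sult2a6, was above background in the same mouse alone, at -4.15. The other Sult2a6 probes were at background on all arrays, with -5.38 (A_55_P2107223) and -6.56 (A_55_P2107225) in NZO 009. The Sult2a1 probe read -6.30 in that mouse. None of these probes was tested, no fold is given, and a single mouse does not describe a strain.

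**Figure D2:**
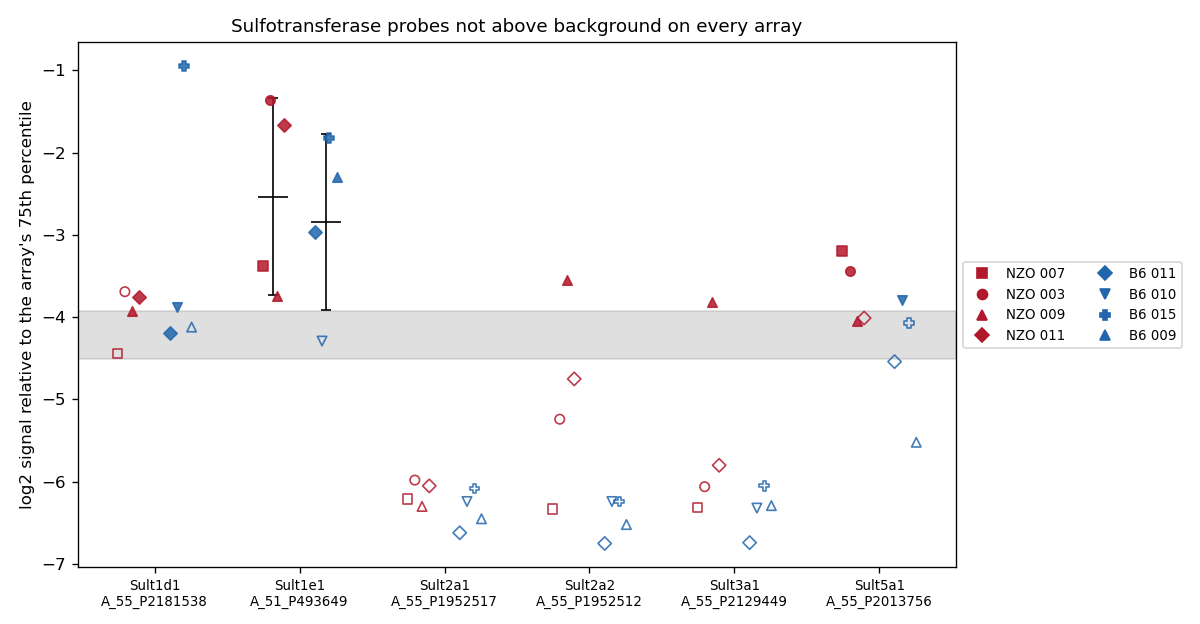
Levels of the 6 sulfotransferase probes that were not above background on every array, on the same log2 axis, for NZO (red) and B6 (blue) mice, 1 symbol per mouse. Filled symbols were well above background, open symbols were not, the grey band spans the weakest signal above background of the 8 arrays (-4.51 to -3.93), and the mean and SD are drawn for the tested probe of Sult1e1. NZO 009 is the single filled symbol for Sult2a2 and Sult3a1, and B6 015 lies far above the others for the second Sult1d1 probe.

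Both the batch and the choice of processing were examined for the tested probes. Per the scanner files, 5 slides and 2 scan days were used: the first day covered 3 NZO and 2 B6 mice, and the second 1 NZO and 2 B6 mice. For Sult1a1 the difference was -1.22 and -1.60 on the days with A_51_P321341 and -1.19 and -1.53 with A_55_P2005475. Sult5a1 differed by 1.73 and 1.05, Sult1b1 by 0.88 and 0.52, and Sult1d1 by -0.56 and -1.31. For these genes the sign was the same on both days and on the slide with both strains, where Sult1d1 differed by -0.48 and Sult1b1 by 1.1. The alternative with slide as a fixed term gives these same values and is not a separate check. Sult1e1 differed by 0.80 and -0.75, so its sign was not the same. The second day holds 1 NZO mouse, NZO 007, and gives no error of its own.

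**Figure D3:**
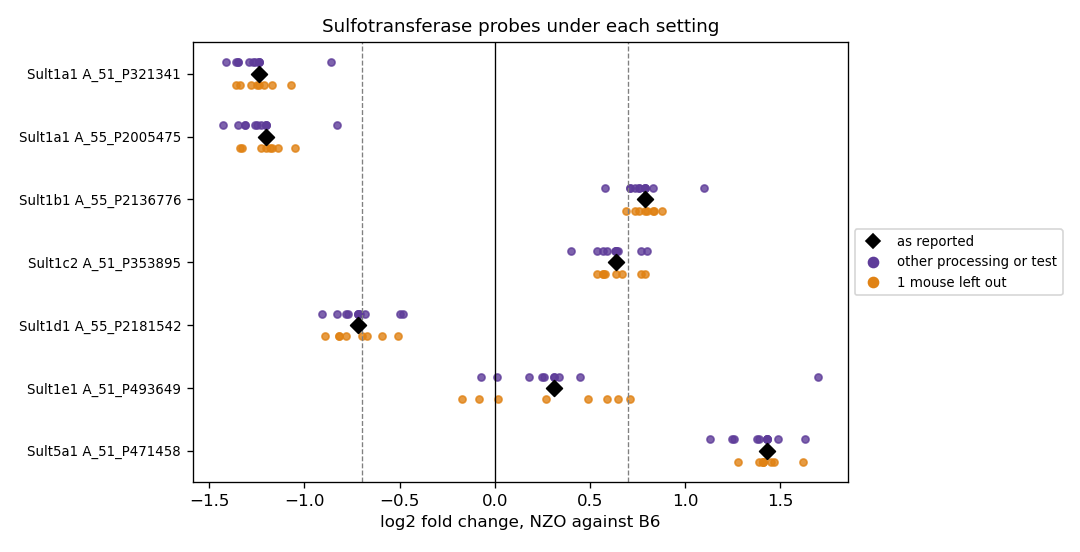
Log2 fold change of NZO against B6 (horizontal axis) for the 7 tested sulfotransferase probes as reported (black diamond), under other processing or tests (purple) and with 1 mouse left out (orange), with dashed lines at the fold limit of 0.7 in either direction. Both Sult1a1 probes stayed below -0.7 and Sult5a1 above 0.7 in all of them, Sult1b1 and Sult1c2 lay on either side of 0.7, and Sult1e1 lay on either side of 0.

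Among the probes above background on all arrays, the spread within strains was widest for Sult1d1 (SD of the deviations from the strain means 0.42) and narrowest for Sult1b1 (0.19). The deviations of Sult1d1 had a correlation of 0.80 and 0.78 with those of the Sult1a1 probes and of 0.75 with those of Sult1c2, over 8 arrays. Sult5a1 had correlations of -0.44 to 0.01 with the other genes. These values are descriptions, since all points come from the same 8 arrays and NZO 007 was low for several of the genes. Among 19988 named probes of other genes, the deviations most like those of Sult1d1 were found for Kalrn (r = 0.993), Raph1 (0.987) and Pptc7 (0.976). For Sult1c2 they were Coq10b (0.977), Slc35a4 (0.968) and Zfp266 (0.958). For the Sult1a1 probe A_55_P2005475, leaving out the other Sult1a1 probe (19987 compared), they were 1810011O10Rik (0.998), Acaca (0.979) and Gca (0.977). These probes were picked as the highest of many correlations over 8 arrays. Their values are descriptions too, and shared control was not tested.

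The other genes of sulfonation were described next, from other sulfotransferases through the supply of sulfate and PAPS to the sulfatases. Of 37 genes listed, 30 were on the array with 37 probes, and 25 probes of 22 genes were tested. Of these, 2 (8% of the tested) were higher and 3 (12%) were lower in NZO, with a median log2 fold change of -0.05. The background of all probes was 4.36% and 5.27%.

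Slc26a2, a sulfate transporter of the cell membrane, was higher in NZO, with means of -1.83 ± 0.57 against -3.71 ± 0.08 and a log2 fold change of 1.88 (SE 0.26, adjusted p = 0.0018). Sult4a1, a sulfotransferase mainly known from brain, was higher with A_52_P562676, at -0.60 ± 0.28 against -2.60 ± 0.67 (log2 fold change 2.0, SE 0.32, adjusted p = 0.00402), whereas both other Sult4a1 probes were at background on all arrays. Slc13a4, a sodium-dependent sulfate transporter, was lower (-1.11, SE 0.26, adjusted p = 0.0226). Sqrdl, which oxidises hydrogen sulfide in mitochondria, was lower (-0.71, adjusted p = 0.00465), and so was the lysosomal arylsulfatase Arsa (-0.79, adjusted p = 0.00191).

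The enzymes that make PAPS did not pass the thresholds. Papss2, the PAPS synthase that prevails in liver, had means of 4.89 ± 0.17 in NZO and 5.59 ± 0.20 in B6 with no overlap between the strains. Its log2 fold change of -0.70 (SE 0.13, adjusted p = 0.00984) fell just short of the fold limit before rounding. Papss1 differed by 0.45 (adjusted p = 0.115). The sulfate and anion transporter Slc26a1 differed by -0.68 (adjusted p = 0.0247), also under the fold limit. The transporters that carry PAPS into the Golgi differed by 0.35 (Slc35b2, adjusted p = 0.0875) and by -0.48 (Slc35b3, adjusted p = 0.0122). The phosphatases that clear the spent donor, Bpnt1 and Impad1, differed by -0.07 to -0.02.

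The enzymes that turn cysteine and sulfite into sulfate, Cdo1 (-0.27) and Suox (0.32), were not called, and neither were Csad (0.41), Ethe1 (0.30), Mpst (0.41) and both Tst probes (0.02 and -0.01). Steroid sulfatase (Sts), which removes sulfate from steroids, differed by -0.51 (adjusted p = 0.256), and the Arsb probes by -0.75 (adjusted p = 0.0518) and -0.25. The Golgi enzyme Tpst2, which sulfates tyrosines of proteins, differed by -0.14. Of the listed Sult2a genes, only Sult2a7 was above background on all arrays, with -0.75 ± 0.64 in NZO and -1.25 ± 0.37 in B6 and a log2 fold change of 0.50 (adjusted p = 0.357). Sult1c1, Sult2a3, Sult2a4, Sult6b1, Slc13a1 and Tpst1 were at background on all arrays. Sult2b1, which acts on cholesterol and related sterols, was above background on 3 B6 arrays and no NZO array and was not tested.

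Because several sulfotransferases depend on sex and on nuclear receptors, transcripts of these kinds were read on the same arrays. Of the 20 tested probes for genes known to prevail in female liver, 11 (55%) were higher and 2 (10%) lower in the male NZO mice, where 4.36% and 5.27% of all tested probes were. For 6 of the 20, B6 was at background on all its arrays, so that they entered the test through NZO, the strain in which they are high. Of the 13 probes above background on all 8 arrays, 5 were higher and 2 lower, and their median log2 fold change was 0.89, beside 0.02 over all tested probes. Where B6 was at background on all its arrays, the change is a lower bound, for which each B6 array was set to its own value or, if higher, to its weakest signal above background, and it was at least 54-fold for Cyp3a44, 35.5-fold for Hao2, 5.43-fold for Cyp2b9, 3.60-fold for A1bg and 3.32-fold for Slc22a26. Cyp3a41b and Cyp3a16, P450 genes like Cyp3a44, were measured in both strains, with log2 fold changes of 5.51 (SE 0.23, adjusted p = 2.89e-06) and 2.85 (SE 0.22, adjusted p = 8.26e-05). Both lower probes belong to Cyp2a4 (-1.31, adjusted p = 0.0157, and -1.28, adjusted p = 0.0117). Among the 4 NZO mice, NZO 009 had the highest level for 12 of the 20 probes and the lowest for 4. NZO 007 had the lowest level for 11 and the highest for 4. The list was chosen with earlier results of these data known. Its shares, counts and median are therefore descriptions and no test of genes that prevail in female liver.

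Genes that prevail in male liver were on the array with 21 probes, all tested, of which 4 (19%) were higher and 2 (9.52%) lower, beside the 4.36% and 5.27% of all tested probes. Cspg5 (1.76), Cyp4a12b (1.32), Cyp4a12a (1.30) and Serpina12 (1.12) were higher in NZO, and Susd4 (-3.56) and 1 of 2 Mup20 probes (-1.85) were lower. The median was 0.06, and Cyp2d9 (-0.19), Hsd3b5 (0.09), Elovl3 (0.04) and Ugt2b38 (0.00) differed by less than 0.2. Larger differences that were not called were those of Cyp7b1 (0.57), Ugt2b1 (0.43) and Mup21 (-0.28). Among the NZO mice, NZO 003 had the highest level for 15 of the 21 probes, and NZO 009 had the lowest for 9.

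Of the 23 tested probes for transcription factors and receptors with a known role in the control of conjugating enzymes, none was called higher with limma, also with p-values left unadjusted, and 2 (8.7%) were lower, beside 4.36% and 5.27% of all tested probes. Both belong to Nr1i3, the constitutive androstane receptor, which induces enzymes of drug metabolism, with log2 fold changes of -1.04 (SE 0.18, adjusted p = 0.00571) and -1.0 (SE 0.16, adjusted p = 0.00341). Its partner in that role, the pregnane X receptor Nr1i2, differed by -0.01 (adjusted p = 0.985). Hnf4a (0.03), both Stat5b probes (-0.02 and 0.01), the growth hormone receptor Ghr (0.14 and 0.31), Nr1h4 (0.30), Nr1h3 (0.15 and 0.10), Ppara (0.07 to 0.39) and Nfe2l2 (-0.22) were not called. Esr1 differed by 0.58 (adjusted p = 0.0203) with 1 of its tested probes and by 0.01 with the other, and Bcl6, Foxa1, Foxa2 and Rora were not called (-0.67 to 0.24).

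**Figure D4:**
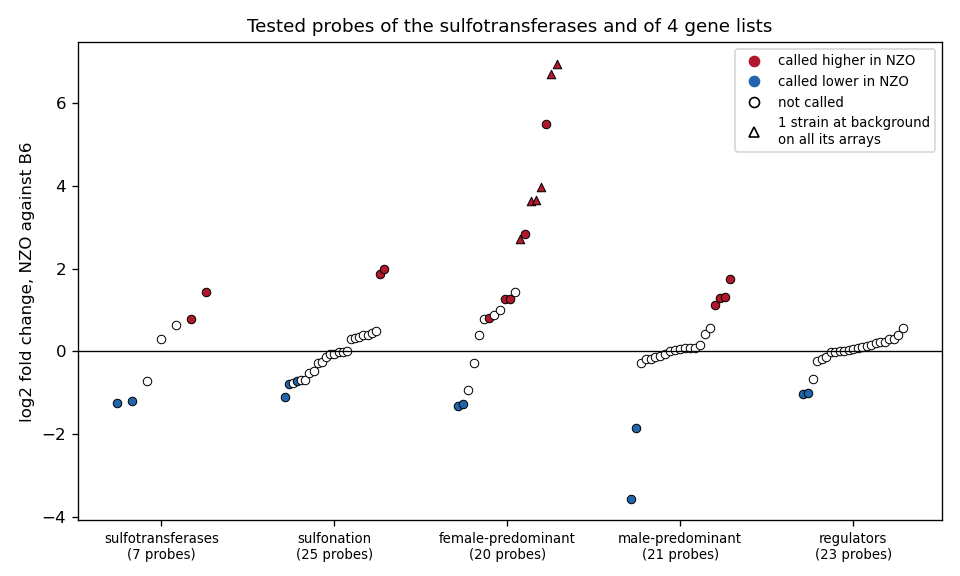
Log2 fold change of NZO against B6 (vertical axis) for each tested probe of the sulfotransferases and of 4 gene lists (horizontal axis), sorted within each list. Red symbols were called higher and blue symbols lower in NZO, open symbols were not called, and triangles mark probes for which 1 strain was at background on all its arrays. All triangles belong to the female-prevalent list, whose 13 probes above background on all arrays had a median of 0.89. The medians of the other lists lay between -0.05 and 0.31.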

How the data were processed

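The authors hybridised Cy3-labelled cRNA from liver RNA and deposited the scanner output of each array. These intensity values come, per the file headers, from version 11.0.1.1 of Agilent Feature Extraction (the submitters' processing notes name version 9.1), and the processed signal is the intensity after background subtraction. The deposited table for all arrays is named as normalized, but its intensities equalled the raw medians for all 59305 spots of each array (tolerance 0.01). It was used as an alternative.

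Controls and the 96 to 137 outlier spots of an array were removed, log2 signals were set relative to the 75th percentile of each array, and spots of a probe were averaged. Of 55681 probes, the 27623 that every array of 1 strain or both read well above background were compared with limma 3.58.1 in R 4.3.3 without a block, and p-values were adjusted after Benjamini and Hochberg over all of them. The limit of 0.7 for the log2 fold change is that of the methods. The script was tested on simulated data. With 4 arrays per strain, the number of arrays limits the precision.

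The named genes are all sulfotransferase probes, up to 8 called probes of each list by size, the regulators and, for 3 sulfotransferases with the widest spread, the 3 most similar probes. One gene that this rule names is not reported here. Further genes of the sulfonation list and the male- and female-prevalent lists were named after their values were seen, for their role. The members and lists were chosen with earlier results of these data known. Symbols are those of the array files. Position and sequence of the probes come from the deposited files, and gene neighbours from a RefSeq gene table. Python 3.11.15 and matplotlib 3.10.9 made the sequence tables and plots. The 21 alternatives covered background correction, normalization, filter, slide, scan day, mouse number, test, thresholds and leaving out each mouse.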

Additional observations from a re-analysis of the deposited data

Results flagged for a closer look

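Among 24 sets of 4 mice (each sulfotransferase probe in each strain), 1 held a mouse far from the others, where chance gives about 1 in 20. With the Sult1d1 probe A_55_P2181538, B6 015 had a level of -0.95, while the other B6 mice lay between -4.19 and -3.87. The tested Sult1d1 probe had its highest level in the same mouse, at 3.29, with the other B6 mice between 2.59 and 2.96.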

How the results depend on the processing

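No sulfotransferase call reversed its direction, and both Sult1a1 probes kept their call in every alternative except the mouse number as a replicate block. Of the sulfotransferase probes, 1 was higher with the deposited table, with slide as a fixed term and with the methods' t-test with Welch correction, and 1 to 3 when 1 mouse was left out. The count was 1 without NZO 003 and 3 without NZO 007 or without B6 015. Over all probes, 618 were higher and 577 lower with normexp, 576 were higher with the deposited table, 502 were higher with slide as a fixed term, 953 were lower among probes above background on all 8 arrays, 886 were lower with the Welch test, 1885 were higher without the fold limit, and leaving out 1 mouse gave 1073 to 1249 and 1218 to 1457. With the deposited table the median log2 fold change of all probes was -0.15, against 0.02, and 28.8% of its calls were higher, against 45.3%. For the sulfonation genes, 1 probe was higher with normexp and 0 with the Welch test. The lower ones were 6 with the percentile over detected probes, 5 with quantile normalization, the deposited table, slide as a random block or scan day, 0 with slide as a fixed term and 6 without the fold limit. Leaving out 1 mouse gave 2 to 6, with 6 without B6 010 and 2 without NZO 011, B6 015 or B6 009. Of the female-prevalent probes, 5 were higher among the 13 above background on all 8 arrays and 7 with slide as a fixed term, and 0 were lower with slide as a fixed term or the Welch test. Of the male-prevalent probes, 2 were higher with slide as a fixed term or the Welch test, and 1 was lower with slide as a fixed term. With slide as a fixed term the strain difference rests on the slide with both strains, which held 1 NZO mouse and 2 B6 mice. The cause of the changes under these alternatives was not tested. The mouse numbers 009 and 011 occur in both strains but name animals and do not pair them (correlation of deviations -0.26 and 0.00). A block by mouse number takes the strain difference from the mice with these numbers alone. With the mouse number as a replicate block, 0 sulfotransferase probes were higher and 0 lower, 72 and 134 of all probes, 0 and 0 of the sulfonation genes, 5 and 0 of the female-prevalent and 0 and 1 of the male-prevalent probes. Sult1e1 could not be tested among probes above background on all 8 arrays, and for Sult2a1, Sult2a2 and Sult3a1 a difference was not detectable at these signals.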
